A study of Mus musculus with 38 samples.

Results

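Brown adipose tissue of C57BL/6J mice fed a high fat diet or a low fat control diet is described here over the first 2 weeks of feeding. The comparison used the 8 arrays labelled LFC (low fat control) or HFC (high fat) at Day 6, Day 10, Day 14 and Week 0, chosen by their labels alone, out of 38 arrays in the series. Weaned mice, 3 to 4 weeks old when they were divided into groups, had free access to food and water under a 12 h light and 12 h dark cycle. The control diet drew 10% of its calories from fat, and the high fat diet drew 60% of its calories from fat and held more sucrose. The remaining groups of the series received the high fat diet with doses of a plant formulation and entered no comparison made here. Each diet had 1 array per time point, so the 4 time points served as replicates. The labels give 5 animals killed per group every 3 weeks. They do not say how many animals were killed at each of the time points used here or entered an array. The design text speaks of 3 biological replicates, but these time points had 1 array per diet. The error therefore holds the spread between time points together with any spread between animals and arrays. The study counted its weeks from Day 14, so Day 14 and Week 0 were the same day on the diets, sampled on separate arrays.

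Brown fat burns fuel to make heat, through mitochondria that hold the uncoupling protein UCP1. It takes up fatty acids and glucose, and on a diet rich in carbohydrate it also makes fatty acids itself, from citrate that leaves the mitochondria, under the transcription factors SREBP1 and ChREBP. Dietary fat is known to hold this synthesis down in liver and fat tissue, whereas fatty acids act on the PPAR receptors, which switch on genes of fat burning.

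Levels are log2 signals relative to the 75th percentile of the same array, and differences are HFC minus LFC on that log2 scale, so 1 unit is 2-fold. Values are listed in the order Day 6, Day 10, Day 14 and Week 0, and an error after a mean difference is the limma standard error over the time points. The 75th percentile was alike for both diets at Day 6 (189 in LFC and 167 in HFC) and at Day 14 (367 and 358). It differed at Day 10, where HFC was 2.91 times brighter (215 and 625), and at Week 0, where LFC was 2.81 times brighter (1209 and 430). Both diets of a time point were scanned on the same day, and those of Day 6 and of Day 10 also shared a slide. The HFC array of Day 10 and the LFC array of Week 0 stood apart from the rest. Their levels correlated with each other across genes at r = 0.925 and with the other 6 arrays at 0.851 to 0.889, against 0.933 to 0.983 among those 6. The LFC array of Week 0 had 963 saturated spots and a highest level of 5.96, so very bright genes have only a lower limit there. Of 7 brown adipocyte markers 6 were well above background on all 8 arrays.

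The limma test took in 19641 genes whose spots stood well above background on 4 or more arrays, and compared the diets within time points. After adjustment 0 of them (0%) passed at 0.05, with 0.99995 as the smallest adjusted p. Before adjustment 261 genes had a limma p under 0.05, of which 77 were higher and 184 lower in HFC. With 4 pairs an exact sign-flip test of a single gene cannot give a p below 0.125. All differences below are therefore measured values that did not pass the test. Among the 18796 genes measured in all 4 pairs, 558 (2.97%) were higher in HFC at 4 of 4 time points and 674 (3.59%) were lower. All 4 HFC arrays lay above all 4 LFC arrays for 50 genes (0.266%) and below them for 62 (0.33%). Only 14 genes were at least 2-fold apart in the same direction at every time point, 2 of them higher (Sgk2 and LOC640605) and 12 lower, among them Acly, Slc2a5, Elovl3, Atp4b and Aldh1a7.

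Differences were spread more widely at the time points with unlike brightness. At least 2-fold differences numbered 1557 genes at Day 6 and 2830 at Day 14, but 8709 at Day 10 and 9560 at Week 0. The share of genes at least 2-fold higher in HFC was 3.79%, 17.8%, 8.81% and 27.3% in time order, and the share at least 2-fold lower was 4.14%, 28.4%, 5.61% and 21.4%. Without a fold limit, genes higher in HFC numbered 10167 of 19636, 8075 of 18835, 10106 of 19621 and 10946 of 19627. Those lower numbered 9469, 10760, 9515 and 8681. Across genes the Day 10 differences correlated with those of Week 0 at r = -0.64, while the other 5 combinations of time points gave -0.01 to 0.13. The part of array brightness in these differences was not tested. For this reason some gene lists are also given by the members that differed the same way at both Day 6 and Day 14, the time points with alike brightness. Among all genes measured at both times 28.3% were higher and 25% were lower at both. Higher at both were 8 of 15 lymphocyte genes (0 lower), 8 of 18 macrophage genes (1 lower) and 8 of 17 fatty acid oxidation genes (0 lower). Of 19 thermogenic genes 2 were higher and 3 lower at both, and of 16 skeletal muscle genes 0 were higher and 13 lower.

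**Figure D1:**
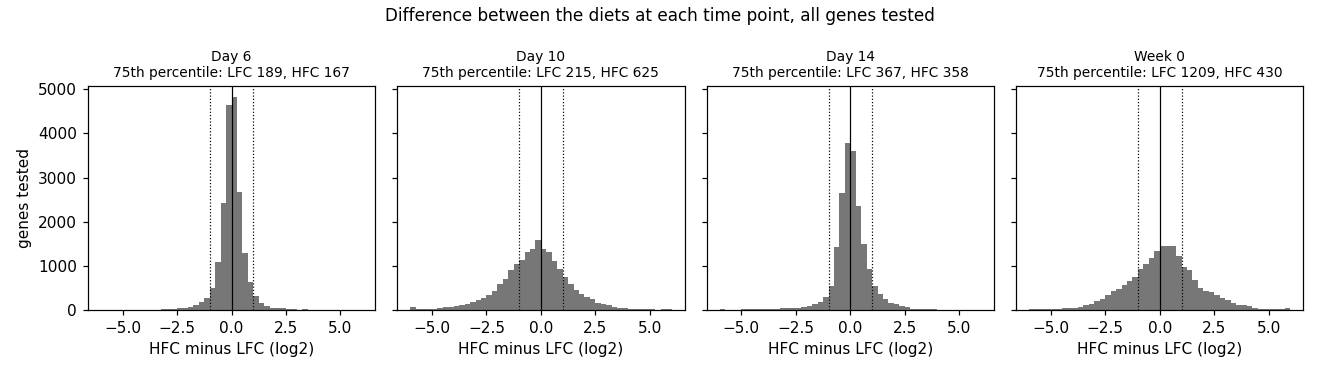
The 4 panels show how many genes had each HFC minus LFC difference (log2, x axis) at Day 6, Day 10, Day 14 and Week 0, with dotted lines at 2-fold and differences beyond 6 drawn at 6. The distributions were narrow at Day 6 and Day 14 (SD 0.60 and 0.89) and broad at Day 10 and Week 0 (SD 1.56 and 1.64), where the 75th percentiles of both arrays differed.

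Genes of fatty acid synthesis were lower in HFC at Day 6, Day 14 and Week 0. Of 18 listed genes 17 were tested, since Pklr was well above background on too few arrays. The mean difference was negative for 17 of 17 (9205 of 19641 over all genes), with a median of -1.70 against 0.02 for all genes tested. At both Day 6 and Day 14, 14 of 17 (background 25%) were lower and 0 of 17 (background 28.3%) were higher. At least 2-fold lower were 9 genes at Day 6 (background 4.14%), 11 at Day 14 (background 5.61%) and 13 at Week 0 (background 21.4%). At Day 10 the list was split, with 6 of 15 genes at least 2-fold lower (background 28.4%) and 5 at least 2-fold higher (background 17.8%). List medians were -1.06, 0.05, -1.47 and -4.42 in time order, beside 0.02, -0.22, 0.02 and 0.20 for all genes tested. Unadjusted limma p values were under 0.05 for 7 of the 17, beside 1.33% of all genes tested.

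The promoters of 3 genes that supply this pathway and of 2 genes of cholesterol synthesis are shown because these members were lower at both Day 6 and Day 14 and supply building blocks to their pathways. Each is the 250 bases before the RefSeq start of the gene in GRCm38.p6, read 5′ to 3′ on the strand of the gene, at chr11:100528001-100528250 (minus strand) for Acly, chr2:155517793-155518042 (plus) for Acss2, chr16:17928220-17928469 (minus) for Slc25a1, chr8:122443423-122443672 (minus) for Mvd and chr13:8885356-8885605 (plus) for Idi1. Capitals mark CCAAT, the box bound by NF-Y, on either strand (ATTGG on the strand shown), and CACGTG, an E-box.
Acly: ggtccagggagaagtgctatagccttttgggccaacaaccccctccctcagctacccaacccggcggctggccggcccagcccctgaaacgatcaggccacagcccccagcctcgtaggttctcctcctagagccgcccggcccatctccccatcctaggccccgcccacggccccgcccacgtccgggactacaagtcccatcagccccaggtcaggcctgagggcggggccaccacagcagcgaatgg
Acss2: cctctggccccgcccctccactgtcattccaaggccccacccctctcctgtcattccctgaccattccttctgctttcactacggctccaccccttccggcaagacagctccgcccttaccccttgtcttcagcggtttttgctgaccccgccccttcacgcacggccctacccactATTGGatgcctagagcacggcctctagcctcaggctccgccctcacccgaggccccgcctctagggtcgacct
Slc25a1: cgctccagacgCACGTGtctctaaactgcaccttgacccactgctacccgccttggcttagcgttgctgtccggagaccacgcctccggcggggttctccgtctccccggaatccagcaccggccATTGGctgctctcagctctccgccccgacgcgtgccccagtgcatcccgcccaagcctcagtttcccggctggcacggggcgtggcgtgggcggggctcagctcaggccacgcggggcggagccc
Mvd: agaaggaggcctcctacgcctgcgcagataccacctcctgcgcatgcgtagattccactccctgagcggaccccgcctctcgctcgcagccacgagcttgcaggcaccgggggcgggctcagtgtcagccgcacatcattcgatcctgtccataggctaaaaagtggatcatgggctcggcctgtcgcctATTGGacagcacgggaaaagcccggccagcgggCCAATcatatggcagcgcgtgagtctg
Idi1: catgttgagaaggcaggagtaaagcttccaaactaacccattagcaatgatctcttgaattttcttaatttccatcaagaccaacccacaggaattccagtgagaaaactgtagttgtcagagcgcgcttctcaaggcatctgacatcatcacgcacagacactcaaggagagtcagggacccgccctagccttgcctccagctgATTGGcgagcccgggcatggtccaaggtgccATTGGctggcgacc
CCAAT stood 73 bases before the start in Acss2, 125 in Slc25a1, 60 and 27 in Mvd and 45 and 14 in Idi1. CACGTG stood 239 bases before the start in Slc25a1, and neither was found in the window of Acly. Within such 250-base windows CCAAT was held by 11 of 15 fatty acid synthesis genes with a sequence (73.3%) and 16 of 17 cholesterol synthesis genes (94.1%), against 37.5% of all genes. CACGTG was held by 3 of 15 (20%) and 4 of 17 (23.5%), against 6.86% of all genes. These matches describe letters in a window and were not set against the diet differences.

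Acly (ATP citrate lyase, which cuts citrate into the acetyl-CoA used for synthesis) lay at 3.29, 3.21, 2.48 and 5.30 on the LFC arrays and at 1.84, 0.97, 1.08 and 0.88 on the HFC arrays. All 4 HFC arrays were below all 4 LFC arrays, and the LFC array of Week 0 was the highest. The mean difference was -2.38 ± 0.59. Slc25a1, the citrate carrier of the mitochondrial membrane, lay at 2.19, 1.62, 2.18 and 5.24 on the LFC arrays and at 0.85, 1.67, 0.34 and -0.13 on the HFC arrays. It was lower in HFC at 3 time points and level at Day 10, so the groups overlapped (-2.12 ± 0.90). Acss2, which makes acetyl-CoA from acetate, differed by -1.27 at Day 6, -3.12 at Day 14 and -6.26 at Week 0, with the Day 10 spot set aside as an outlier by the scanner software. Me1, the malic enzyme that supplies NADPH, lay at 3.81, 3.91, 3.79 and 5.74 on the LFC arrays and at 2.31, 3.82, 1.15 and 1.11 on the HFC arrays. It was lower at 4 of 4 time points, though by only 0.09 at Day 10 (-2.22 ± 0.77).

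The enzymes that build and desaturate the chain come next in the pathway. Acaca (acetyl-CoA carboxylase, the committed step) lay at 1.20, 0.59, 1.54 and 4.88 on the LFC arrays and at 0.09, 1.37, -1.13 and -1.57 on the HFC arrays. It was lower in HFC at Day 6, Day 14 and Week 0 and higher at Day 10. Fasn (fatty acid synthase) lay at 8.17, 7.73, 7.28 and 5.72 on the LFC arrays and at 7.11, 6.35, 5.81 and 5.75 on the HFC arrays, with the LFC spots of Day 14 and Week 0 and the HFC spot of Day 10 saturated. Only the Day 6 difference of -1.06 is free of saturation. The -1.47 of Day 14 is a lower limit in size, and Day 10 and Week 0 give no direction for this gene. Elovl6, which lengthens the product, differed by -1.30 at Day 6, -2.34 at Day 14 and -5.99 at Week 0, with no Day 10 value.

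Scd1, the stearoyl-CoA desaturase that makes oleate, lay at 6.10, 5.13, 6.29 and 5.79 on the LFC arrays and at 3.29, 5.54, 2.80 and 2.38 on the HFC arrays. HFC was lower by over 2-fold at every time point but Day 10. On the LFC array of Week 0 the spots of Acss2, Me1, Elovl6, Scd1 and Thrsp were saturated too, so their differences there are lower limits in size. Scd2, another desaturase, lay at 3.11, 3.38, 2.98 and 5.52 on the LFC arrays and at 1.43, 1.43, 2.44 and 1.83 on the HFC arrays. All 4 HFC arrays were below all 4 LFC arrays (-1.97 ± 0.56). Among the regulators, Mlxipl (ChREBP) lay at 1.51, 1.16, 1.35 and 5.47 on the LFC arrays and at 0.55, 4.08, -1.20 and -0.74 on the HFC arrays and Srebf1 at 2.95, 3.17, 3.23 and 5.36 on the LFC arrays and at 2.79, 5.06, 2.60 and 2.63 on the HFC arrays. Both were lower in HFC at Day 6, Day 14 and Week 0 and higher at Day 10, with Srebf1 the smaller of the pair at Day 6 (-0.16 against -0.96). The members Elovl5, Fads1, Fads2 and Thrsp had mean differences between -0.48 and -0.22, each under 1.5 times its standard error. The Thrsp mean of -0.25 includes its Week 0 difference of -1.17, which saturation makes a lower limit in size.

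**Figure D2:**
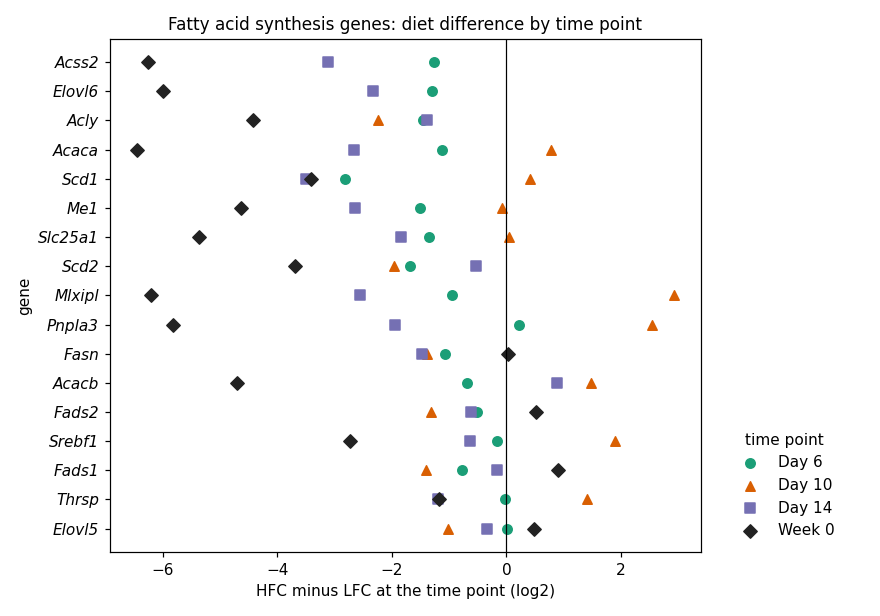
Each row is 1 of the 17 fatty acid synthesis genes tested, and each symbol is the HFC minus LFC difference (log2, x axis) at 1 time point. Symbols of Day 6 and Day 14 lie at or left of 0 for 14 genes at both times, while Day 10 symbols lie on both sides and Week 0 symbols reach -6.45 in Acaca.

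Slc2a5, the fructose transporter GLUT5, lay at -0.72, -0.79, 0.47 and 4.34 on the LFC arrays and at -2.73, -2.68, -4.50 and -3.78 on the HFC arrays. The groups did not overlap, and the differences were -2.01, -1.90, -4.96 and -8.12 in time order (-4.25 ± 1.14). Elovl3, an elongase of very long chain fatty acids that is induced in cold-exposed brown fat, lay at -0.93, -2.03, -2.27 and 1.54 on the LFC arrays and at -3.25, -4.51, -6.10 and -7.11 on the HFC arrays. It was lower on every HFC array than on any LFC array, but well above background on only 2 of 4 HFC arrays. The HFC levels of Day 14 and Week 0 lie under the lowest level called well above background on those arrays, so no mean difference is given. Atp4b, the beta subunit of the gastric proton pump, lay at -2.52, -2.23, -2.08 and 2.19 on the LFC arrays and at -3.98, -4.06, -4.99 and -4.78 on the HFC arrays, again without overlap (-3.29 ± 0.98). Aldh1a7, an aldehyde dehydrogenase, lay at -0.84, -1.28, -0.59 and 0.52 on the LFC arrays and at -1.87, -4.58, -2.07 and -1.89 on the HFC arrays, also without overlap (-2.05 ± 0.46).

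The other genes with a lower level at 4 of 4 time points and the largest of the smallest differences were Cytl1, Cnn1, Gm3134, Rtkn, LOC100043229 and Sema3b, chosen by rule among genes well above background on all 8 arrays. Sema3b, a semaphorin, differed by -1.74 ± 0.39, and Rtkn (rhotekin) by -1.19 ± 0.30. Cytl1, a secreted protein, and Cnn1, the smooth muscle calponin, differed by -2.13 ± 0.67 and -2.06 ± 0.66. The 4 Rtkn values of HFC lay below all LFC values, whereas the groups of Sema3b, Cytl1 and Cnn1 overlapped. Sfrp5, a secreted inhibitor of Wnt signals that marks fat expansion, lay at -3.23, -2.47, -1.62 and -4.15 on the LFC arrays and at -4.33, -3.54, -2.84 and -5.06 on the HFC arrays and was lower at each time point (-1.07 ± 0.27). The HFC signal was too dim for that call on 1 of 4 arrays. With normexp background correction the difference was -0.10. The olfactory receptor genes Olfr344 and Olfr1317, with Sgk2, had the smallest p values, and both were well above background on 1 HFC array.

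Genes of cholesterol synthesis were lower in HFC less deeply. All 25 listed genes were tested, with a median of -0.69 and 22 of 25 means below 0 (9205 of 19641 over all genes). Of the 25, 14 were lower at both Day 6 and Day 14 (background 25%). Their list medians were -0.37, 0.00, -0.12 and -1.99 in time order, so the depth came from Week 0. Lower at 4 of 4 time points were 4 genes (background 3.59%), among them Mvd, Idi1 and Sqle. Sqle, squalene epoxidase, lay at -0.31, -0.07, -0.84 and 1.52 on the LFC arrays and at -1.19, -0.81, -0.98 and -1.10 on the HFC arrays. Each HFC array was below the LFC array of its own time point, though the groups overlapped slightly (-1.10 ± 0.48). Lss (lanosterol synthase) differed by -0.87 at Day 6, 1.44 at Day 10, -1.37 at Day 14 and -5.50 at Week 0.

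**Figure D3:**
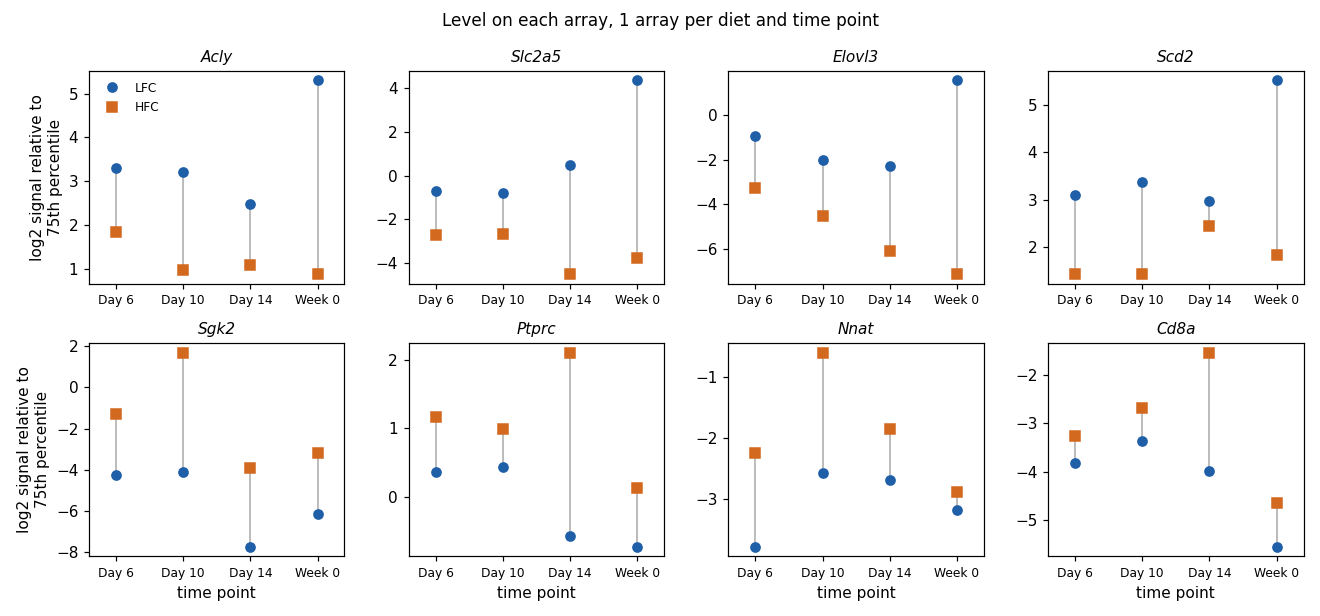
Each panel shows 1 gene, with circles for LFC and squares for HFC (log2 signal relative to the 75th percentile, y axis) at the 4 time points and a line joining the arrays of a pair. HFC lies below LFC at all 4 time points for Acly, Slc2a5, Elovl3 and Scd2 and above it for Sgk2, Ptprc, Nnat and Cd8a.

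Fat-burning genes were higher in HFC at Day 6 and not at Day 14. Of 17 genes of fatty acid oxidation, all tested, 17 were higher at Day 6 (10167 of 19636 over all genes). At least 2-fold higher were 13 of them (background 3.79%). At Day 14, 8 were higher and 9 lower, and 0 of 17 were 2-fold apart (background 8.81% higher and 5.61% lower). List medians were 1.13, 2.92, -0.03 and -1.70. On the LFC array of Week 0, 11 of these genes were saturated, and 6 were on the HFC array of Day 10. Cpt1b, the carnitine palmitoyltransferase that admits fatty acids to mitochondria, lay at 0.82, 0.44, 0.49 and 4.37 on the LFC arrays and at 1.99, 4.73, -0.03 and 0.70 on the HFC arrays. Etfa, an electron carrier of beta oxidation, lay at 3.18, 2.51, 2.84 and 5.66 on the LFC arrays and at 4.95, 6.07, 3.65 and 3.97 on the HFC arrays. In both, HFC was higher at Day 6 and Day 10 and lower at Week 0.

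Mitochondrial respiration genes went the same way. Of 20 genes 20 were higher at Day 6 (10167 of 19636 over all genes), by a median of 0.72, with 2 at least 2-fold higher (background 3.79%). At Day 14, 18 were lower (9515 of 19621 over all genes), by a median of -0.35. On the LFC array of Week 0, 17 of the 20 were saturated. In the thermogenic list 19 of 20 genes were tested (all but Bmp8b). At Day 6, 15 were higher (10167 of 19636 over all genes) and 6 of them at least 2-fold (background 3.79%). At Day 14, 16 were lower (9515 of 19621 over all genes) and 4 at least 2-fold (background 5.61%). Ucp1 lay at 6.27, 5.25, 5.08 and 5.76 on the LFC arrays and at 7.35, 6.68, 5.07 and 6.30 on the HFC arrays, with the LFC spot of Week 0 saturated. HFC was higher at Day 6 and Day 10 and level at Day 14. Of the 18 members with all pairs, only Elovl3 was lower at 4 of 4 time points (background 3.59%) and 0 were higher (background 2.97%).

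Genes that fatty acids induce through the PPAR receptors gave medians of 0.28, 1.98, -0.01 and -1.23 over 15 of 17 genes tested (all but Cyp4a10 and Cyp4a14). Fabp3, a fatty acid binding protein, lay at 3.01, 2.16, 2.64 and 5.40 on the LFC arrays and at 5.41, 6.51, 3.60 and 4.03 on the HFC arrays, higher in HFC at every time point but Week 0. Plin5, which coats lipid droplets next to mitochondria, was higher by 1.49 at Day 6 and differed by -0.01 at Day 14. Of the 19 genes of lipid uptake and storage, Pck1 alone had a higher measured level at 4 of 4 time points (background 2.97%), though saturation leaves its direction at Week 0 unmeasured. Pck1 (phosphoenolpyruvate carboxykinase, which in fat makes glycerol for triglyceride) lay at 5.35, 5.48, 4.37 and 5.81 on the LFC arrays and at 7.48, 6.69, 5.63 and 5.94 on the HFC arrays. The LFC spot of Week 0 and the HFC spot of Day 10 were saturated, so no mean difference is given, and the differences at Day 6 and Day 14 were 2.13 and 1.26. Glycolysis genes (20 of 20 tested) had medians of 0.21, 1.75, -0.39 and -1.84, and white adipocyte markers (11 of 16 tested) 0.02, 1.01, 0.26 and -1.55. On the LFC array of Week 0, 9 glycolysis genes, 5 PPAR targets and 3 white adipocyte markers were saturated. On the HFC array of Day 10 the counts were 4, 4 and 2, so saturation limits these medians at both time points.

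Lymphocyte genes were higher in HFC at Day 14 and Week 0. Since bulk tissue was measured, more cells of a type and more RNA per cell cannot be told apart. Of 18 listed lymphocyte genes 15 were tested (Cd4 and Cd79a were too dim and Ighm was not found on the array). At Day 14, 15 of 15 were higher (10106 of 19621 over all genes), 14 of them at least 2-fold (background 8.81%). At Week 0 the counts were again 15 (10946 of 19627 over all genes) and 14 (background 27.3%). At Day 6 none of the 15 was 2-fold apart, with 8 higher and 7 lower. List medians were 0.02, 0.07, 2.12 and 2.02. Cd3g, a chain of the T cell receptor complex, lay at -3.59, -2.78, -3.60 and -4.91 on the LFC arrays and at -2.80, -2.53, -0.69 and -3.48 on the HFC arrays. HFC was higher at 4 of 4 time points, most at Day 14 (1.35 ± 0.51). Cd8a, the coreceptor of cytotoxic T cells, lay at -3.83, -3.36, -3.99 and -5.55 on the LFC arrays and at -3.27, -2.68, -1.54 and -4.65 on the HFC arrays, higher at 4 of 4 but overlapping (1.15 ± 0.42). Lck and Nkg7 were also higher at 4 of 4, so 4 of 15 members were (background 2.97%). Ptprc (CD45, on all white blood cells) lay at 0.37, 0.44, -0.56 and -0.72 on the LFC arrays and at 1.17, 1.0, 2.10 and 0.13 on the HFC arrays and was higher each time, by 2.66 at Day 14 (1.22 ± 0.45).

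Macrophage genes were higher at 4 of 4 time points in 7 of the 17 members with all pairs (background 2.97%), with list medians of 0.00, 1.03, 0.57 and 0.23. At Day 10, 15 of 17 were higher (8075 of 18835 over all genes), 10 of them at least 2-fold (background 17.8%). At Day 14, 16 of 18 were higher (10106 of 19621 over all genes), 2 of them at least 2-fold (background 8.81%). At Day 6, 9 of 18 were higher and 9 lower, none of them 2-fold, and at Week 0, 11 of 18 were higher (10946 of 19627 over all genes). No member had an unadjusted limma p under 0.05. The 7 higher at 4 of 4 were Emr1, Cd68, Itgam, Itgax, Clec7a, Mpeg1 and Ctss, with Day 6 differences of only 0.08 in Emr1 and 0.06 in Cd68. The mean difference was above 0 for 16 of 18 members and below 0 for 2. C1qa went the other way, with -0.44 at Day 6, -0.34 at Day 14, -0.41 at Week 0 and no Day 10 value. The receptors Cd300ld and Pilrb1, both of myeloid cells, differed by 0.97 ± 0.29 and 1.05 ± 0.31. Vdr, the vitamin D receptor, differed by 0.78 ± 0.27. Gm2147, LOC100046618, Mynn and Gm6292 were also among the 10 highest by the rule, and 1 of 2 further Mynn probes had the same sign. Interferon-stimulated genes (16 tested) had medians of -0.04, -0.81, 0.56 and 0.31.

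Sgk2, a kinase of the serum and glucocorticoid regulated family, had the smallest p of all and lay at -4.25, -4.11, -7.73 and -6.14 on the LFC arrays and at -1.29, 1.67, -3.92 and -3.19 on the HFC arrays. All HFC arrays lay above all LFC arrays, with a mean difference of 3.88 ± 0.57. The LFC spot of Day 14 was too dim to stand out from background, so the size there is uncertain. Nnat (neuronatin, an imprinted gene linked to fat expansion) lay at -3.78, -2.58, -2.69 and -3.18 on the LFC arrays and at -2.24, -0.61, -1.85 and -2.89 on the HFC arrays and was higher at 4 of 4, with overlap (1.16 ± 0.39). Of the 12 adipose expansion genes 2 were higher at 4 of 4 (Nnat and Mest, background 2.97%) and 1 lower (Sfrp5, background 3.59%). Among 18 cell cycle genes 13 were higher at both Day 6 and Day 14 (background 28.3%), with medians of 0.34, -0.50, 0.49 and 0.93. At Day 10, 15 of the 18 were lower (10760 of 18835 over all genes). Aurkb, a mitotic kinase, and Rrm2, of nucleotide synthesis, were higher at 4 of 4 (background 2.97%). The groups of Aurkb did not overlap (background 0.266%). Of 15 clock genes with all 4 pairs, 3 were higher at 4 of 4 (Arntl, Clock and Npas2, background 2.97%) and 2 lower (background 3.59%). Npas2 was well above background on 2 of 4 LFC and 3 of 4 HFC arrays. Both its Week 0 levels (-7.62 in LFC and -5.77 in HFC) were too dim for that call, so its direction there is uncertain. Arntl, the clock factor BMAL1, differed by 0.23, 0.07, 0.72 and 3.19, and its mean of 1.05 ± 0.61 became 0.34 without Week 0.

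Markers of other cell types moved between arrays too. The summed level of the lymphocyte markers ran from -2.55 to 0.18 in LFC and from -0.66 to 1.08 in HFC. That of the 4 macrophage markers ran from 1.79 to 3.68 in LFC and from 1.95 to 3.73 in HFC, and was lower in HFC at Day 6 and Week 0. Skeletal muscle markers ran from -2.32 to 3.90 in LFC and from 0.42 to 7.67 in HFC, and their list median was -0.56, 4.93, -2.17 and 2.45. Acta1, the muscle actin, lay at 2.58, 2.08, 2.54 and -2.72 on the LFC arrays and at 1.74, 6.40, 1.35 and -0.27 on the HFC arrays. Schwann cell markers ran from -1.04 to 3.05 in LFC and from -0.67 to 1.48 in HFC. Of 9 nerve and Schwann cell genes tested, 8 were lower at each of Day 6, Day 10 and Day 14, not always the same 8, as 7 were lower at both Day 6 and Day 14 (background 25%). Over all genes 9469 of 19636, 10760 of 18835 and 9515 of 19621 were lower at these 3 time points. At Day 6, 6 of the 9 were at least 2-fold lower (background 4.14%). At Week 0, 8 of 9 were higher (10946 of 19627 over all genes), with a median of 0.83. Prx, a myelin protein, lay at 1.96, 2.03, 0.47 and -4.36 on the LFC arrays and at -1.16, -2.21, 0.33 and -2.81 on the HFC arrays. Endothelial markers gave list medians of -0.01, -2.06, -0.12 and 2.86, and erythroid markers 0.15, -1.98, 1.50 and 1.80. The part of these cell types in the other differences was not tested.

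The immediate early genes, which cells switch on within minutes of a stimulus, stood apart on the same arrays. All 16 were lower in HFC at Day 10 (median -3.73) and all 16 higher at Week 0 (median 5.22), against medians of 0.18 and 0.41 at Day 6 and Day 14. Over all genes 10760 of 18835 were lower at Day 10 and 10946 of 19627 higher at Week 0. Fos lay at 4.99, 5.37, 5.24 and -2.66 on the LFC arrays and at 5.43, -3.52, 5.95 and 5.64 on the HFC arrays, so it was low on the HFC array of Day 10 and the LFC array of Week 0 and high on the other 6. Collagen and matrix genes gave list medians of -0.25, -0.15, 0.25 and -0.19, integrated stress genes 0.18, -0.48, 0.24 and -0.13, and glucocorticoid and metallothionein genes -0.12, -1.52, 0.50 and 0.51.

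**Figure D4:**
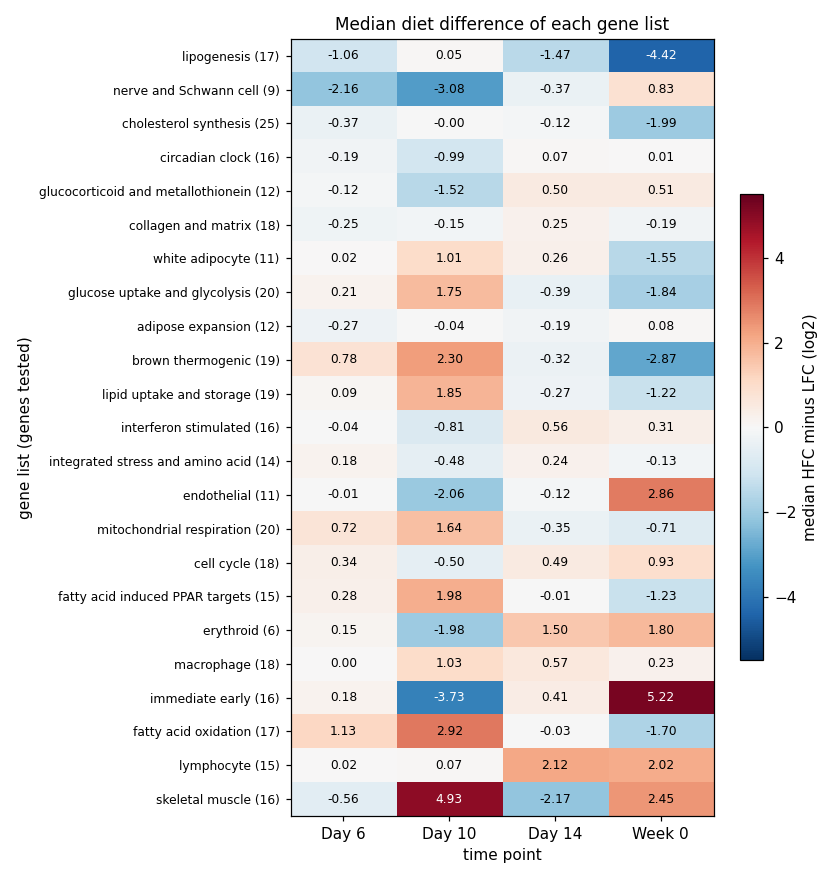
The grid gives the median HFC minus LFC difference (log2) of each of the 23 gene lists (rows, with genes tested in brackets) at each time point (columns), red for higher and blue for lower in HFC. Fatty acid synthesis is blue at Day 6, Day 14 and Week 0, lymphocyte genes are red from Day 14, and the highest medians are those of skeletal muscle at Day 10 (4.93) and of immediate early genes at Week 0 (5.22).

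The early difference was set against that of weeks 3 to 18, for which 6 further arrays per diet exist. In a limma contrast over all 20 LFC and HFC arrays, 0 of 22355 genes (0%) passed at an adjusted p under 0.05, while 927 did before adjustment. The contrast took genes well above background on 4 or more of the 20 arrays. The 3 smallest p values were those of LOC100045248 (2.35 ± 0.41, early minus later), Olfr391 (-3.55 ± 0.69) and Gm3134 (-3.07 ± 0.62). In the first 2 weeks Olfr391 was well above background on only 2 LFC arrays and 1 HFC array, too few for the early test. Fatty acid synthesis medians at weeks 3, 6, 9, 12, 15 and 18 were -1.70, -0.49, -2.48, -3.40, -0.88 and 0.06. Those of lymphocyte genes were -0.14, -0.32, 2.06, 1.69, 1.44 and 1.75. Acly had a later mean of -1.81 and was lower at 5 of 6 later weeks, Scd1 was lower at 6 of 6, and Nnat was higher at 6 of 6 by 2.46. Sfrp5 had a later mean of 0.30. The 75th percentiles of LFC and HFC were far apart at Week 9 (1023 and 48), Week 12 (830 and 120) and Week 18 (148 and 50). They were closer at Week 3 (655 and 695), Week 6 (178 and 163) and Week 15 (197 and 239). The Week 9 arrays of both diets were also scanned on different days. The part of array brightness in these later differences was not tested.

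**Figure D5:**
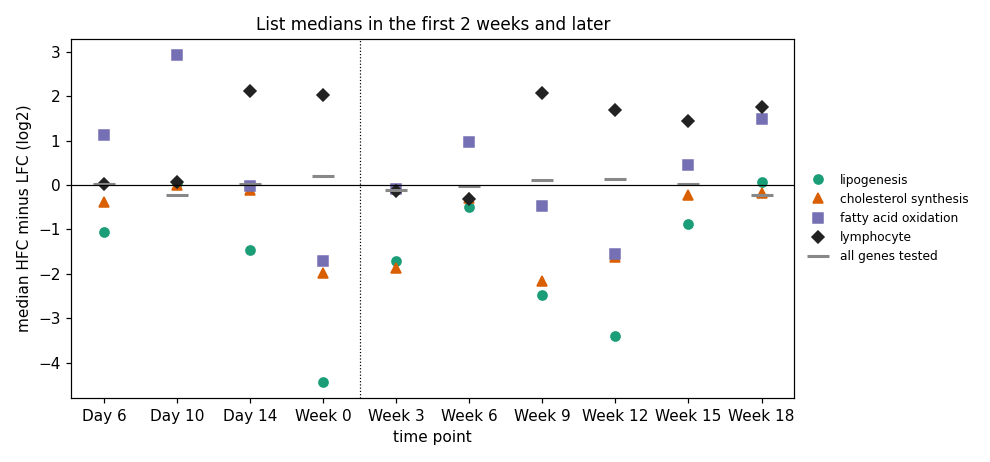
Symbols show the median HFC minus LFC difference (log2, y axis) of 4 gene lists at each of 10 time points (x axis), with grey bars for all genes tested and a dotted line after Week 0. The fatty acid synthesis median lies below 0 at Day 6, Day 14 and Week 0 and from Week 3 to Week 15, and the lymphocyte median lies above 1 at Day 14, Week 0 and from Week 9. Array brightness was unlike between the diets at Day 10, Week 0, Week 9, Week 12 and Week 18.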

How the data were processed

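The authors deposited scanner files of 1-colour Agilent arrays (Cy3, Quick-Amp labelling) with spot intensity from Feature Extraction 10.5.1.1, whose processed signal is corrected for background but not scaled between arrays. The authors also deposited a table of log2 values against the LFC array of each time point, used as an alternative here. The log2 processed signal minus the 75th percentile of the array was taken, spots marked as outliers were left out, and the brightest probe of a gene was kept. Genes with spots well above background on 4 or more of the 8 arrays and with 3 or more pairs were tested, and 845 lacked a pair, mostly at Day 10. limma 3.58.1 (lmFit and eBayes, R 4.3.3, with the data.table package in version 1.17.8) was fitted with the time point as a block, two-sided, with Benjamini-Hochberg adjustment over all genes. The number of arrays and signal over background limit precision. The steps were tested on simulated data. Genes were named where they differed one way at all 4 time points (the 10 highest and 10 lowest by smallest difference), had the 3 smallest p values, were list members with a mean of at least 1, or were key genes of a list. Some genes that the rule selects are not reported here. The members and the 23 lists were chosen with earlier results of these data known. Promoters are from RefSeq. Alternatives covered normalization, background, filters, pairing, brightness and left-out time points.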

Additional observations from a re-analysis of the deposited data

Results flagged for a closer look

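Some levels lay far from the other 3 of the same diet, by the gap to the nearest one as a share of the range of the 4. Of 74 groups of 4 levels examined 15 did so, and chance gives about 1 in 20. All 15 were levels of the LFC array of Week 0 or the HFC array of Day 10, the arrays with the brighter 75th percentile of their pairs.

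The LFC array of Week 0 was the high one for Slc25a1 (share 0.842), Acss2 (0.840), Me1 (0.941), Elovl6 (0.859), Scd2 (0.842), Mlxipl (0.918), Srebf1 (0.885), Lss (0.863), Cpt1b (0.904) and Atp4b (0.906). It was the low one for Fos (0.953) and Acta1 (0.907). The HFC array of Day 10 was the high one for Srebf1 (0.922) and the low one for Fos (0.945) and Aldh1a7 (0.929). The part of array brightness in these levels was not tested.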

How the results depend on the processing

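No gene passed at an adjusted p under 0.05 in limma or the methods' t-test under any of the 20 alternatives, and the count at an unadjusted p under 0.05 ran from 15 (normexp) to 1454 (brightness as a covariate), beside 261. Without each time point in turn it was 102 to 606. Without the replicate block, which pairs the arrays by time point, 0 genes passed and 160 had an unadjusted p under 0.05. The 14 genes at least 2-fold apart at every time point became 0 with normexp, 8 with a floor, 5 with signal above background on all 8 arrays, 279 for the pairs of like brightness alone, 356 for those of unlike brightness, 51 with Day 14 and Week 0 joined, and 44 to 111 without one time point, where fewer pairs had to meet the rule. The early against later contrast gave 0 genes in every setting run. The 35 genes that the rule selects, key genes of a list aside, all differed one way at all 4 time points. Settings that only leave out or divide the time points therefore could not change their sign. Their sign also held in the other settings, but normexp shrank 24 of the differences by over 1.5 times, and Sfrp5 to -0.10. The median of adipose expansion was -0.23 over the like pairs and that of integrated stress -0.20 over the unlike pairs, against 0.01 and 0.17. Fatty acid synthesis stayed between -2.42 and -0.81, cholesterol synthesis between -1.0 and -0.27, lymphocyte genes between 0.47 and 1.34 and macrophage genes between 0.27 and 0.66. Other medians crossed 0: thermogenic genes ran from -0.70 to 0.94, fatty acid oxidation from -0.10 to 1.36, PPAR targets from -0.43 to 1.01, immediate early genes from -1.16 to 1.99 and skeletal muscle from -1.46 to 3.61. The cause of these shifts was not tested.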
